A study of Mus musculus with 46 samples.

Results

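H3.3 ChIP-Seq peaks were compared between 2 sorted fractions of mouse embryonic fibroblasts (MEFs) on their way to induced pluripotent stem cells (iPSCs). The first, D9T-, was collected on day 9 after induction as cells without the surface marker Thy-1. The second, D12S+, was collected on day 12 as cells with the surface marker SSEA-1. Both were chosen by their day, sort and antibody, and they are 2 of the 46 samples of the series, of which 30 had peak lists and 12 of those were H3.3 libraries of reprogramming. The MEFs carried an Oct4 reporter and were infected with pMXs retroviruses for Oct4, Sox2, Klf4 and c-Myc, with no feeder layer and no passage. For reprogramming the paper names serum medium with LIF, serum-replacement medium with LIF, or the latter type with bFGF, ascorbic acid and CHIR99021. It does not say which of these the fractions here had. Both fractions shared the reporter and the factors and were precipitated with the same lot of H3.3 antibody. The delivered cDNAs can add reads at the endogenous Pou5f1, Sox2, Klf4 and Myc genes. Each fraction was 1 library, so no difference has a replicate check and no test was run. All intervals are 95% Wilson intervals, which cover counting error only. The day and the sort marker change together between the fractions and cannot be told apart.

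H3.3 is the histone H3 variant that is placed into chromatin outside of DNA replication, by the Hira complex at active genes and regulatory elements and by Atrx and Daxx at heterochromatin and some repeats. It therefore accumulates where nucleosomes turn over. Thy-1 is a glycoprotein of the fibroblast surface that cells lose early in reprogramming, and SSEA-1 is a carbohydrate of the surface of mouse pluripotent cells that appears later. AP-1 (Fos and Jun dimers) is the class of transcription factor that binds many fibroblast enhancers, and the octamer is the DNA word read by Oct4.

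The sequences below show both sides of the step at intergenic peaks of high score, taken from the mm9 genome as 120 bases on the plus strand. The first 3 lie in D12S+ peaks with no overlapping D9T- peak and hold the octamer (ATGCAAAT on either strand, in capitals). The last 3 lie in D9T- peaks with no overlapping D12S+ peak and hold the AP-1 word (TGANTCA, in capitals).
gained octamer 1, chr9:19408420-19408539: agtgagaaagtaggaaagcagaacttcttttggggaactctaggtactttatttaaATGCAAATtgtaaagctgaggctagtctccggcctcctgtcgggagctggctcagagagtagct
gained octamer 2, chr11:19314516-19314635: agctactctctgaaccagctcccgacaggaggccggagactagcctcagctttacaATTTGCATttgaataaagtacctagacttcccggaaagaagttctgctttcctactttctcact
gained octamer 3, chr11:22502221-22502340: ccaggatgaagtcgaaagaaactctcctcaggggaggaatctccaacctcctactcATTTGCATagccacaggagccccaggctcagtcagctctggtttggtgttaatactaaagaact
lost AP-1 1, chr2:50771374-50771493: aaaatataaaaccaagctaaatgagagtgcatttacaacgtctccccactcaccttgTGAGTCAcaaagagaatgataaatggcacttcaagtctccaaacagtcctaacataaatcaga
lost AP-1 2, chr9:83241864-83241983: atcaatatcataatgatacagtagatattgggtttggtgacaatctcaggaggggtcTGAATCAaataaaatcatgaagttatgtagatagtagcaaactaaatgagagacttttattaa
lost AP-1 3, chr15:52794572-52794691: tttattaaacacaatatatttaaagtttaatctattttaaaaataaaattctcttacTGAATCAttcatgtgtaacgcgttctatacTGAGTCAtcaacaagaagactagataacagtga

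The score of a peak is its normalized tag count, the tags in it scaled to a library of 10.0 M tags, and it is not divided by length. The peak around octamer 1 scored 41.3 in D12S+, 60.8 in D16S+ (the day 16 SSEA-1+ cells), 44.0 in iPSCs, 10.2 in ESD3 embryonic stem cells and 9.02 in the day 16 SSEA-1- cells (D16S-), with no peak in the other 7 libraries. The peak around octamer 3 scored 35.1 in D12S+, 24.3 in D16S+, 39.4 in iPSCs and 61.5 in ESD3, and no library before D12S+ or of the other fractions had one. The peak around octamer 2 scored 35.3 in D12S+ and was overlapped by peaks of D6T- at 24.3, D9T+ at 23.4 and D12S- at 35.9, so that site was not particular to the later cells. Octamer 1 and octamer 2 were the same element on opposite strands, with 115 of 120 bases identical (95.8%). The 20 bases at the centre of octamer 1 occurred 64 times in the genome and those of octamer 2 occurred 162 times, whereas the centres of the other 4 sequences occurred once. AP-1 1, 233 kb from the start of Rnd3, scored 66.4 in D9T- after 8.53 in D0 (the starting MEFs), 14.3 in D3 and 49.6 in D6T-, scored 80.5 in D12S- (the day 12 SSEA-1- cells), and had no peak in D12S+, D16S+, iPSCs or ESD3. AP-1 2 and AP-1 3 scored 41.0 and 23.9 in D0, 66.3 and 64.3 in D9T-, and 61.5 and 156 in D12S-. The AP-1 peaks were picked among lost peaks present in D0 and absent from D16S+, iPSCs and ESD3. The octamer peaks were picked among gained peaks present in D16S+, iPSCs and ESD3 and absent from D0. These presences and absences were thus set by the choice and are not results.

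The libraries differed in depth and in enrichment. D9T- had 32.4 M tags, 14.8% of them in peaks, and 68394 peaks over 96.2 Mb, with a median length of 786 bp. D12S+ had 22.5 M tags, 6.93% of them in peaks, and 45922 peaks over 45.6 Mb, with a median length of 635 bp. The 12 H3.3 libraries spanned 18.7 to 41.2 M tags. The share of peaks at least 4-fold over input was 26.3% in D9T- and 59.4% in D12S+. For this reason the counts of lost and gained peaks and genes, their overlap with other libraries and the gene lists were repeated with the 45922 peaks of highest score in every library (D16S+, with 34062 peaks, kept all of its own), which is called equal numbers here. The part of depth and enrichment in the other results was not tested.

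Against their labels, the markers of each cell type were read as genes with an H3.3 peak. A protein-coding gene was called bound when a peak's midpoint lay from 1 kb before its start to 1 kb past its end. Of 10 fibroblast markers, 10 were bound in D0, 6 in D9T-, 4 in D12S+, 1 in D16S+, 2 in iPSCs and 0 in ESD3, and their summed score was 4149, 462, 50.2, 12.8, 35.3 and 0 in these libraries. In sorted bulk cells, fewer cells that carry a peak and a weaker peak in each cell cannot be told apart. Of 9 pluripotent markers, 2 were bound in D0, 6 in D9T-, 7 in D12S+, 6 in D16S+, 9 in iPSCs and 7 in ESD3, with summed scores of 57.6, 185, 538, 643, 1395 and 1215. Of 6 epithelial markers, 3 were bound in D0, 4 in D9T- and 5 in D12S+, with summed scores of 82.8, 356 and 408. Thy1, the gene of the first sort marker, had no peak in D9T- or D12S+ and scored 101 in D0, 33.1 in D6T+ and 38.3 in D9T+. The fucosyltransferase genes that finish SSEA-1 did not mark the D12S+ fraction: Fut4 was at 0 in both libraries and Fut9 went from 10.5 in D9T- to 0 in D12S+.

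Peaks of D9T- with no overlapping D12S+ peak, called lost, numbered 45211 of 68394 (66.1%, 65.7 to 66.5). Peaks of D12S+ with no overlapping D9T- peak, called gained, numbered 18477 of 45922 (40.2%, 39.8 to 40.7). With equal numbers, 25314 were lost (55.1%, 54.7 to 55.6) and 20843 gained (45.4%, 44.9 to 45.8), so losses outnumbered gains in both settings and by less in the second. With only peaks at least 4-fold over input the order turned, at 82.3% lost and 87.1% gained. The bases shared by both libraries came to 27.9 Mb, which was 29.0% of the D9T- bases and 61.2% of the D12S+ bases. Shared bases over all covered bases (the Jaccard index) were 0.245, against 0.398 for the step before (D6T- to D9T-) and 0.202 for the step after (D12S+ to D16S+). With equal numbers these indices were 0.262, 0.430 and 0.202. D12S- was closer to D9T- (0.413) than D12S+ was, although both were collected 3 days after it.

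The peaks that were lost and gained were the weak and short ones. Lost peaks had a median score of 8.34 and a median length of 637 bp, and the 23183 D9T- peaks that overlapped a D12S+ peak (kept) had 25.8 and 1716 bp. Gained peaks had a median score of 7.33 and a length of 501 bp, and 64.7% of them had this length, the shortest common one, or less. None of the 500 D9T- peaks of highest score was lost (Wilson upper limit 0.762%), and the lost share was 23.1% at ranks 5001 to 10000 and 87.6% from rank 40001 on. The gained share was 1.40% in the first 500 D12S+ peaks, 14.8% at ranks 5001 to 10000 and 65.2% from rank 40001 on.

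**Figure D1:**
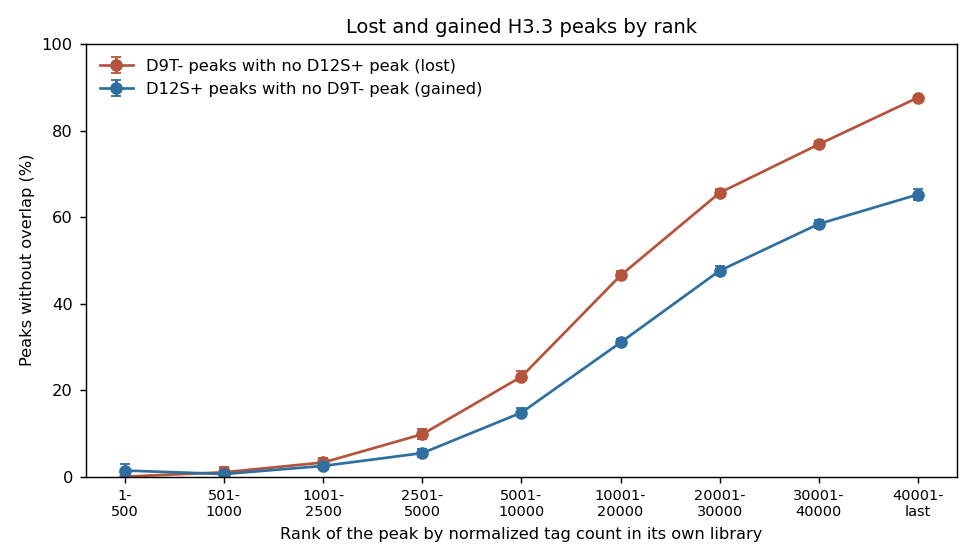
Share of peaks without an overlapping peak in the other library (%, vertical axis) by rank of normalized tag count within their own library (horizontal axis), for D9T- peaks (lost) and D12S+ peaks (gained), with bars of 95% Wilson intervals. Both shares climb with rank, from 0% and 1.40% in the first 500 peaks to 87.6% and 65.2% in the last group.

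Where a single D9T- peak met a single D12S+ peak (18259 pairs), the called peak was shorter in D12S+ at a like tag density. The median length was 1469 bp in D9T- and 756 bp in D12S+, and 71.5% of pairs were shorter in D12S+. Tags per kb had medians of 14.5 and 14.3, and the log2 ratio of D12S+ to D9T- had a median of -0.02. A further 3714 D9T- peaks each overlapped several D12S+ peaks.

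Lost peaks lay in introns more often than gained ones, and gained peaks lay between genes more often. Introns held 55.6% of lost and 46.1% of gained peaks, intergenic DNA 29.3% and 37.0%, and promoters (from 1000 bp before to 100 bp after a start) 5.97% and 6.25%. Kept peaks lay at promoters in 13.2% of cases counted in D9T-. Among the 1000 peaks of highest score in each set the contrast was wider, with 61.7% of lost peaks in introns against 33.9% of gained ones, and 25.6% against 50.5% between genes.

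The other 10 H3.3 libraries, which had no part in defining loss or gain, were used to date the peaks. Of lost peaks, 36.5% (36.1 to 37.0) overlapped a D0 peak and 24.8% an iPSC peak. Of gained peaks, 29.0% overlapped a D0 peak and 49.5% (48.8 to 50.2) an iPSC peak. Kept peaks had higher shares of both, at 65.6% and 70.7% counted in D9T- and 62.4% and 65.4% counted in D12S+. With equal numbers the lost shares were 31.4% and 20.0%, and the gained shares 22.1% and 40.9%. The direction of iPSCs, gained above lost, was also seen with D16S+, which overlapped 7.91% of lost and 21.8% of gained peaks, and with ESD3, at 12.4% and 28.8%. The order of D0 and iPSCs among gained peaks turned when only peaks at least 4-fold over input were kept in every library, where 28.2% overlapped D0 and 9.67% iPSCs. The lost share in D0 was then 22.7%, so the order of lost and gained peaks in D0 turned too, while iPSCs overlapped 4.72% of lost peaks. That limit kept 17967 D9T- and 27274 D12S+ peaks.

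Some lost peaks had no counterpart in the earlier libraries. Those in none of D0, D3 and D6T- made up 30.0% and those in all 3 made up 16.9%. In all 3 and then in none of D16S+, iPSCs and ESD3 were 8.80% (3977 peaks). Kept peaks counted in D9T- had 8.89%, 51.2% and 6.67%, so the last pattern was only slightly more common among lost peaks. D6T-, the fraction 3 days earlier, overlapped 56.3% of lost peaks. Gained peaks in none of D0, D3 and D6T- made up 52.1% and those in at least 1 of the 3 later libraries 58.1%. In no earlier and in every later library were 8.48% (1566 peaks). Kept peaks counted in D12S+ had 9.21%, 74.9% and 1.73%, so gained peaks were less often than kept ones in a later library. A residue of 13.0% of lost and 14.2% of gained peaks was seen in no other H3.3 library.

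The fraction that did not display SSEA-1 on day 12 still carried most of what D12S+ lacked. D12S- overlapped 59.6% of lost peaks (59.3% with equal numbers) and 39.4% of gained peaks (30.4%). It overlapped 91.9% of kept peaks counted in D9T- and 91.5% of those counted in D12S+. Among the 1000 lost peaks of highest score, which had scores of 40.5 to 153 and a median length of 3304 bp, D6T- overlapped 98.5%, D9T+ 93.5%, D12S- 99.7%, D16S- 87.7%, D16S+ 21.4% and iPSCs 39.5%. Among the 1000 gained peaks of highest score (17.1 to 335, median length 1441 bp), iPSCs overlapped 87.6%, ESD3 69.9%, D16S+ 65.6%, D12S- 50.8%, D0 31.1% and D9T+ 23.9%. Overlap depends on the size of the other list, and D12S- covered 141 Mb against 29.3 Mb in D16S+.

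**Figure D2:**
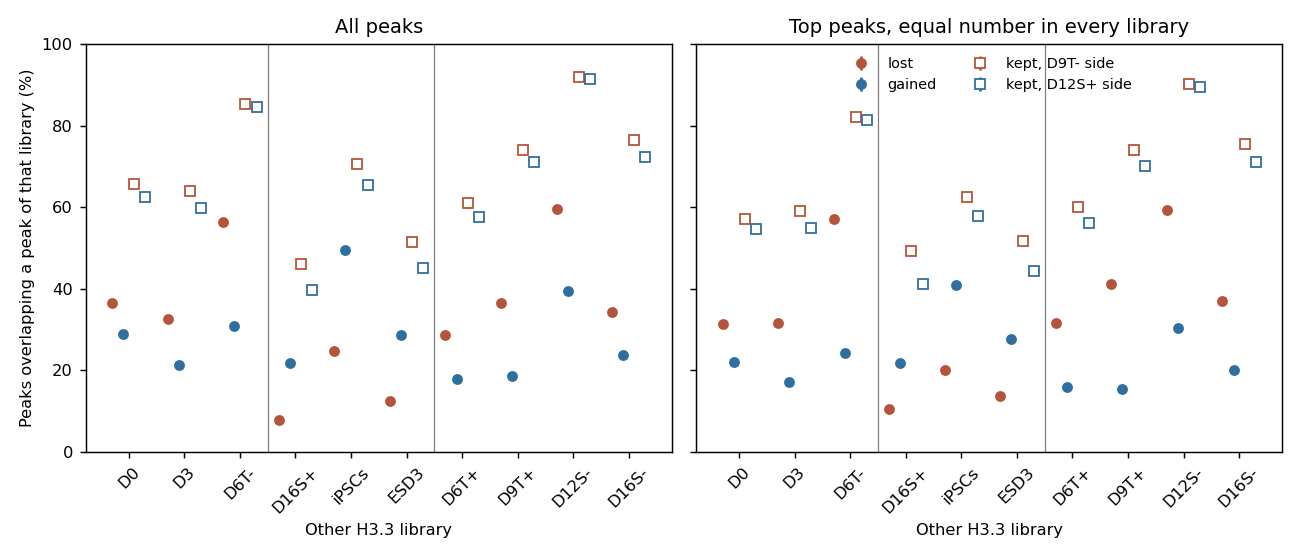
Share of lost, gained and kept peaks that overlap a peak of each of the other 10 H3.3 libraries (%, vertical axis; libraries on the horizontal axis, parted by lines into earlier, later and other fractions), for all peaks on the left and equal numbers on the right. Lost peaks stand above gained ones in D0, D3, D6T- and the 4 other fractions, and gained peaks stand above lost ones in D16S+, iPSCs and ESD3.

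Repeated DNA parted the gained from the lost peaks. A peak's midpoint was called repeated when its 30 bases occurred more than once in mm9. Among intergenic peaks, 6.86% of lost (6.44 to 7.31) and 28.2% of gained midpoints (27.2 to 29.3) were repeated, and 10.2% of kept ones counted in D12S+. Midpoints 5 kb away from the same peaks were repeated in 13.1% of cases for lost and 22.5% for gained, so the neighbourhood of gained peaks was also richer in repeats. Gained intergenic peaks that were in iPSCs and not in D0 reached 44.1% (28.5% at 5 kb), and those in D0 and not in iPSCs had 5.68% (12.0% at 5 kb). With equal numbers the shares were 6.68% for lost and 27.0% for gained. The authors kept reads that mapped to 1 locus, so the tags of such peaks come from unique stretches, inside the repeat or beside it. Where in the peaks the tags lay was not tested.

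The octamer and the AP-1 word were unevenly spread over the lost and gained peaks. All shares are of 500 bp windows at intergenic midpoints, with both strands searched, beside windows 5 kb away that held no peak. The octamer was in 5.32% of gained windows (4.81 to 5.88; 3.47% away) and 4.54% of lost windows (4.20 to 4.91; 3.54% away). It was in 7.10% of gained windows that were in iPSCs and not in D0 (6.29 to 8.01; 3.82% away) and in 8.50% of the 1000 gained windows of highest score against 4.70% of the 1000 lost ones. The octamer moved with the repeats: it was in 8.20% of gained windows with a repeated midpoint (157 of 1915) and in 4.19% of those without (3.66 to 4.79). Lost windows without a repeated midpoint held it in 4.63% (4.27 to 5.02), so the order of gained and lost windows turned when repeated midpoints were left out, with intervals that overlap. Among gained windows that were in iPSCs and not in D0, those without a repeated midpoint held it in 5.59% of cases (4.65 to 6.71). The element shown as octamer 1 and octamer 2 is one such repeat.

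The AP-1 word was in 19.8% of lost windows (19.1 to 20.5; 15.0% away) and 17.2% of gained windows (16.3 to 18.1; 15.8% away). In lost windows that were in D0 and not in iPSCs it reached 28.3% (26.7 to 30.0; 15.1% away), and 28.7% when only midpoints that occur once were kept. Gained windows with the same history and such midpoints held it in 24.2% (21.0 to 27.8), and lost windows that were in iPSCs and not in D0 in 13.9% (12.2 to 15.7). A high AP-1 share thus went with presence in D0 and absence from iPSCs in both sets. The word of Klf factors, GGGTGTGG, was in 6.50% of lost and 5.17% of gained windows (3.59% and 3.64% away). The word of Tead factors, ACATTCCA, was in 2.84% and 2.62% (2.44% and 2.35% away), and the intervals of those 2 shares overlap. A match of letters is not evidence that a factor was bound.

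**Figure D3:**
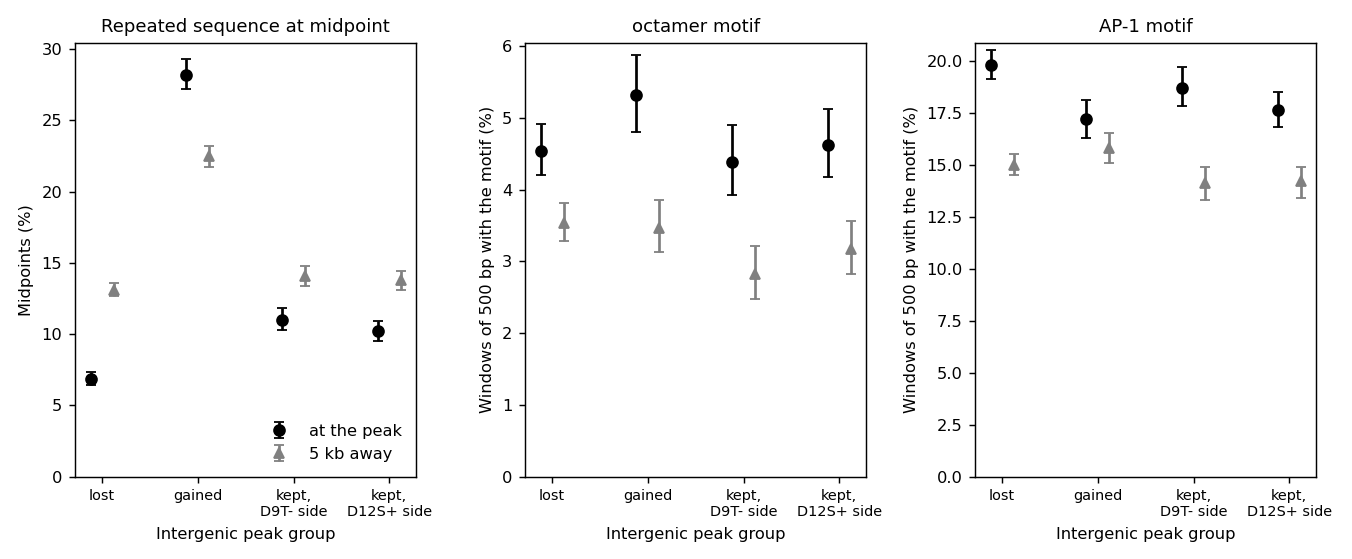
Share of intergenic peaks (%, vertical axes) with a repeated 30-mer at the midpoint (left), an octamer (middle) or an AP-1 word (right) in each group, for windows at the peak (circles) and 5 kb away (triangles), with 95% Wilson intervals. Gained peaks have the most repeated midpoints (28.2%, against 6.86% for lost), and lost peaks have an AP-1 word in 19.8% of windows.

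At the level of genes, 11923 of 22238 protein-coding genes were bound in D9T- and 10279 in D12S+. Of those bound in D9T-, 2817 had no peak in D12S+ (23.6%, 22.9 to 24.4). Of those bound in D12S+, 1173 had no peak in D9T- (11.4%, 10.8 to 12.0), which was also 11.4% of the 10315 genes that D9T- left unbound. With equal numbers 1975 genes were lost (19.0%) and 1834 gained (17.8%, or 15.5% of the genes unbound in D9T-), so the excess of losses was small there. All 1173 genes gained with all peaks were also gained with equal numbers, and all 1975 genes lost with equal numbers were also lost with all peaks. Lost genes had a median length of 23.5 kb and gained genes of 12.8 kb, beside 27.5 kb for kept genes. Longer genes can hold more peaks, and the part of length was not tested.

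Midpoints can move between neighbours without H3.3 leaving a gene. A broad peak over Rpl4 and Snapc5 (chr9:64021899-64031777 in D9T-, chr9:64021808-64027172 in D12S+) was counted for Snapc5 in D9T- and for Rpl4 in D12S+, which made Rpl4 (124 in D12S+) a gained gene. Under a second rule, any base of the gene span covered by a peak, 2612 of 12978 genes were lost (20.1%) and 817 of 11183 gained (7.31%). Of genes lost by midpoint, 484 (17.2%) still had a D12S+ peak in their span, and of genes gained by midpoint, 459 (39.1%) already had a D9T- peak. Both rules held for 2333 lost and 714 gained genes. For 7 of the 8 lost and all 8 gained genes of highest summed score by midpoint, a peak of the other library covered part of the span. The lost ones were Adamts6 (275), Actb (426), Eif4a1 (480), Hist1h3c (366), Junb (285), Ubb (217) and Ccdc84 (193), and the gained ones were Hnrnpa1 (244), Cd68 (232), Chmp2a (201), Hnrnpa3 (196), Hist1h2bb (166), Leng9 (165), Gps2 (160) and Eef2 (156).

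The 12 genes lost by both rules with the highest summed scores carried from 2 to 19 D9T- peaks each. Me1, the cytosolic malic enzyme that makes NADPH, had 19 D9T- peaks and scored 254 in D9T- after 523, 251 and 383 in D0, D3 and D6T-. It scored 317 in D12S-, 0 in D12S+, D16S+ and iPSCs, and 35.9 in ESD3. Syne1, a giant linker of nucleus and cytoskeleton, scored 575 in D0, 151 in D9T- and 320 in D12S-, 0 in D12S+, D16S+ and iPSCs, and 9.71 in ESD3. Adamts6, a secreted metalloprotease lost by midpoint only, scored 480 in D0, 275 in D9T- and 12.5 in D16S+. The X-linked Dock11 (182 in D9T-) and Bcor (163), a Polycomb-linked corepressor, were also among the 12 of highest score, with Aatf (188), Mtpn (186), Spats2l (162), Limch1 (161), Sfmbt1 (160), Chmp3 (149) and Hibadh (135). Tcf19, whose gene neighbours Pou5f1, scored 251 in D0, 168 in D9T- and 532 in D12S-, 0 in D12S+, D16S+ and iPSCs, and 76.6 in ESD3. It is 4.09 kb long and had 2 D9T- peaks, against 530 kb and 10 peaks for Syne1.

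Genes gained by both rules were led by Sfi1, a centrosome protein, with a single D12S+ peak of 0.626 kb that scored 123. Sfi1 scored 129 in D12S-, 177 in D16S+, 925 in iPSCs and 954 in ESD3, and 0 in the other libraries. Gained peaks had medians of 7.33 and 501 bp, so this score was high for the length, and the input at Sfi1 is not given here. Coil, the scaffold of Cajal bodies, scored 0 in D9T- after 39.6 in D6T-, and then 90.1 in D12S+, 144 in D16S+ and 752 in iPSCs. Esrrb, an orphan nuclear receptor of the pluripotency network, scored 24.8 in D0, 6.39 in D3, 0 in D6T- and D9T-, 68.5 in D12S+, 182 in D16S+, 571 in iPSCs and 539 in ESD3. All 4 of the other fractions were at 0 for Esrrb. Skint4 scored 48.9 and Cyp2j11 42.2 in D12S+, with nothing in any earlier library. Sprr2a3 (63.7), Lrp11 (54.4), Eps8l1 (43.3), Fam82a2 (38.0), Zfp777 (37.5), Pld3 (35.1) and Adap2 (34.7) completed the 12, and all 7 had been bound in D0.

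Among the 9106 genes bound in both libraries the summed score was mostly lower in D12S+. The median log2 ratio of D12S+ to D9T- was -1.01, 4588 genes were at least 2-fold lower (50.4%) and 481 at least 2-fold higher (5.28%), and 18.7% were higher at all. Relative to that median, 1714 genes were 2-fold higher and 1739 were 2-fold lower, a balance that the centring largely sets.

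The genes that stood highest against that shift included regulators of pluripotency. Tdgf1, the Nodal co-receptor Cripto, scored 0 in D0 and D3, 9.44 in D6T- and 5.56 in D9T-, and then 117, 129, 115 and 59.2 in D12S+, D16S+, iPSCs and ESD3, and 0 in the 4 other fractions. Its log2 ratio was 4.40. Nanog, the homeodomain factor of the naive state, scored 0 in D0 and D3, 6.24 in D6T- and 8.65 in D9T-, and then 121, 177, 218 and 250 in D12S+, D16S+, iPSCs and ESD3, with a log2 ratio of 3.80. In the other fractions Nanog scored 46.8 in D12S-, 7.32 in D16S- and 0 in D6T+ and D9T+. Mbd3, a subunit of the NuRD complex, went from 6.02 to 89.3 (log2 3.89), after 142 in D0 and 156 in D6T-, but D9T- peaks already covered 47.8% of its body and D12S+ peaks 57.4%. Arl6ip1 (log2 4.11), Zswim4 (4.01) and Mmachc (3.69) completed the 6. The covered share of the body was lower in D12S+ for these 3, at 66.7% and 46.1% for Arl6ip1 and 13.5% and 11.4% for Zswim4. For Mbd3 and these 3 genes most of the D9T- cover lay in peaks that were not counted for the gene, so their log2 ratios rest on midpoints that fell elsewhere in D9T-.

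At the other end, Pdzrn3, a ubiquitin ligase, had 36 peaks and a score of 725 in D9T- and 2 peaks and 16.2 in D12S+ (log2 -5.48). It scored 1484 in D0, 1090 in D12S- and 0 in iPSCs. Zfp521, a zinc finger factor, went from 441 to 7.33 (log2 -5.91), beside 465 in D12S-. Zfp407 (-5.47) was alike, and Snapc5 (-5.28) is the moved midpoint described with Rpl4. Tomm20 (-5.20) had 2 D9T- peaks, and peaks covered 63.5% of its body in D9T- and 14.7% in D12S+. Only 1 D12S+ peak of 0.501 kb was counted for Tomm20.

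The fibroblast and mesenchymal list was bound less often and more weakly in D12S+. Of 46 genes, 36 were bound in D9T- and 22 in D12S+, a change of -30.4 percentage points (-47.1 to -10.7), beside -7.39 points for all genes. With equal numbers the change was -21.7 points (-39.5 to -1.65), beside -0.634. In all, 1 gene was gained and 15 of the 36 were lost, beside 23.6% lost among all bound genes. The 21 kept genes had a median log2 ratio of -1.91, and 1 was higher in D12S+, beside -1.01 for all kept genes.

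Among lost fibroblast genes, Col6a3 (a chain of type VI collagen) scored 64.2 in D9T-, after 666, 54.2 and 67.7 in D0, D3 and D6T-, and 76.2 in D12S-, and 0 in D12S+, D16S+, iPSCs and ESD3. Acta2, smooth muscle actin, scored 350 in D0, 50.4 in D9T- and 190 in D12S-, and 0 in those same 4 libraries. Mmp2, a gelatinase, went from 37.7 to 0, Col5a2 from 31.8, Cav1 (the coat protein of caveolae) from 30.1 and Cdh11 (a mesenchymal cadherin) from 23.4. These genes were far below D0 before the step, as Cdh11 had scored 546 and Col5a2 571 in MEFs.

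The fibroblast genes of highest D9T- score stayed bound, at lower scores in D12S+. Cd44, the hyaluronan receptor, scored 782 in D9T-, after 1471 in D0 and 1136 in D6T-, and 1389 in D12S-, against 62.4 in D12S+, 0 in D16S+ and 5.59 in iPSCs. Tgfbr2, the type II TGF-beta receptor, went from 493 to 131, Fbn1 (fibrillin) from 386 to 51.1, Prrx1 (a mesenchymal homeobox factor) from 339 to 25.8 and Zeb2 (a repressor of epithelial genes) from 232 to 42.4. Smaller falls were those of Vim (vimentin) from 361 to 144, Cald1 (caldesmon) from 360 to 101, Tpm1 (tropomyosin) from 301 to 136 and Fn1 (fibronectin) from 337 to 178, and that of Fn1 was less than the median fall of all kept genes. Col1a2 scored 707 in D0 and was the gene gained, from 0 to 6.22, close to the lowest scores called.

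The pluripotency list differed by 1 bound gene, with kept genes higher and lower in nearly equal number. Of 43 genes, 31 were bound in D9T- and 32 in D12S+, a change of 2.33 points (-16.1 to 20.5), beside -7.39 for all genes. With equal numbers the change was 11.6 points (-7.85 to 30.0), beside -0.634. Of the genes unbound in D9T-, 4 were gained (Esrrb, Mycn, Lin28b and Dppa2), and 3 were lost, Klf2 and Dnmt3b among them. The 28 kept genes had a median log2 ratio of 0.08, and 15 were higher in D12S+, beside a median of -1.01 over all kept genes.

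Members of the pluripotency list moved in both directions. Tdh, threonine dehydrogenase, went from 44.2 to 145, and Slc2a3, a glucose transporter, from 148 to 382. Tet1, which oxidizes methylcytosine, went from 166 to 264 with 101 in D0 and 964 in iPSCs. Sall4 went from 96.9 to 152, Nodal (a TGF-beta family ligand) from 29.0 to 56.2 and Lefty1 (its inhibitor) from 10.2 to 46.6. Of the 28 kept genes, 13 were lower in D12S+. Etv5 went from 676 to 445, Tet2 from 367 to 234, Fbxo15 from 169 to 93.7, Tbx3 from 63.7 to 21.5 and Lefty2 from 30.9 to 16.4. Trim28, a corepressor of retroelements, went from 260 to 47.3. Chmp2a, gained by midpoint only, went from 0 to 201 at this step, with 100% of its body covered in both libraries. Whether a midpoint moved between Trim28 and Chmp2a was not tested. Among gained genes, Mycn went from 0 to 33.6, Lin28b (a blocker of let-7 maturation) from 0 to 16.6 and Dppa2 from 0 to 7.11, with 120 for Dppa2 in iPSCs. A D9T- peak already touched the span of Mycn.

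A later set had no peak in either library. Zfp42 (Rex1) scored 11.7 in D16S+, 99.4 in iPSCs and 147 in ESD3. Dppa4 scored 76.5 in iPSCs, Dppa3 (Stella) 42.2 and Prdm14, a repressor of methylation and differentiation genes, 41.6. Dnmt3b, a de novo methyltransferase, went from 10.7 to 0 although iPSCs had 208. Klf2 went from 12.2 to 0 by midpoint, although a D12S+ peak still touched its span.

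The values of the delivered factors are given apart, but Pou5f1, Sox2 and Klf4 are counted in the pluripotency list above. Pou5f1 scored 145 in D9T-, 542 in D12S+ and 5742 in iPSCs, where the input in its peak was 21.5 and 28.1 times the median input density of all peaks in D9T- and D12S+. Sox2 went from 28.0 to 29.5, Klf4 from 97.9 to 52.2 and Myc from 63.6 to 25.8. Genomic and viral copies cannot be told apart at these genes.

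**Figure D4:**
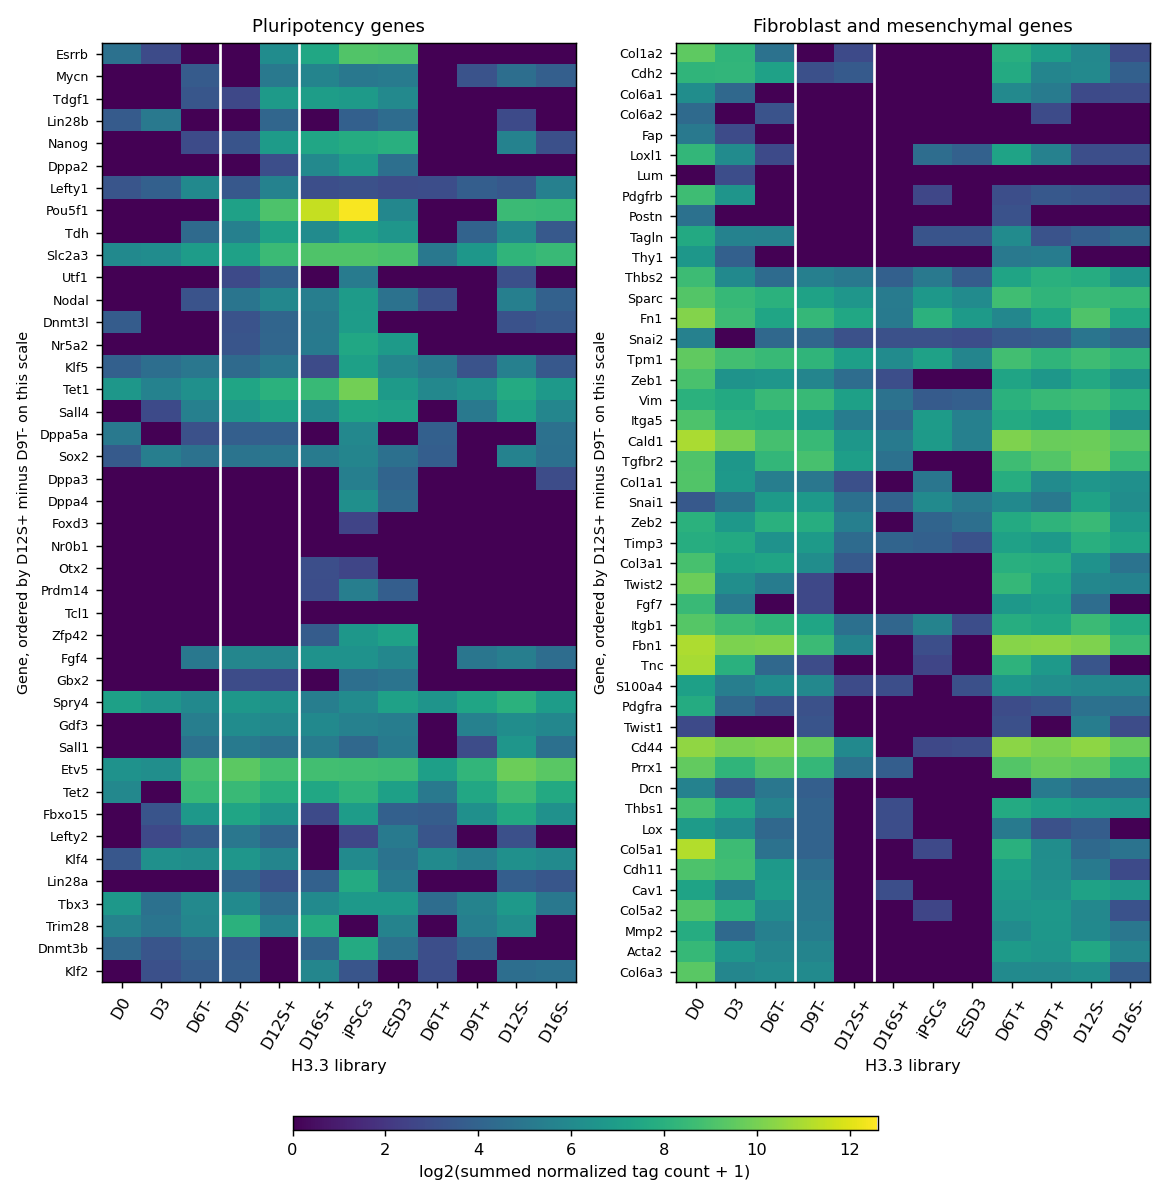
Summed normalized tag count of pluripotency genes (left) and fibroblast genes (right) in 12 H3.3 libraries, as colour on a scale of log2(score + 1), with rows ordered by D12S+ minus D9T- and white lines around those 2 libraries. Esrrb, Tdgf1 and Nanog are bright from D12S+ to ESD3, and Cd44, Fbn1 and Prrx1 are bright up to D9T- and in D12S-.

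Matrix genes outside the fibroblast list were also bound less often in D12S+, but those kept did not fall further than other genes. Of 28 genes of collagen and matrix assembly, 23 were bound in D9T- and 15 in D12S+ (-28.6 points, -48.9 to -4.08), and with equal numbers 19 and 15 (-14.3 points, -37.0 to 10.8), beside -7.39 and -0.634 points for all genes. The 14 kept genes had a median log2 ratio of -0.84, beside -1.01 for all kept genes. Lost members were Col12a1 (57.9 in D9T-), Fbln2 (49.8), P4ha2 (41.1, a collagen prolyl hydroxylase), Fbln1 (28.4), Col8a1 (21.3) and Col16a1 (7.72) among 9 of the 23 (all genes 23.6%), and Col7a1 was gained at 7.78. A D9T- peak already touched the span of Col7a1, and a D12S+ peak still touched that of Col16a1. Fbln1 was bound again in iPSCs, at 184.

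TGF-beta pathway genes stayed bound at lower scores. Of 24 genes, 22 were bound in D9T- and 21 in D12S+ (-4.17 points, -23.6 to 15.2, beside -7.39 for all genes). The 20 kept had a median log2 ratio of -2.15, beside -1.01 for all kept genes, with 2 higher in D12S+. Ltbp1, which tethers latent TGF-beta to the matrix, scored 901 in D0, 927 in D9T-, 1476 in D12S-, 121 in D12S+ and 10.8 in iPSCs. The signal transducer Smad3 went from 435 to 83.1, its corepressor Ski from 543 to 209, and the inhibitor Smad6 from 65.1 to 86.4. Skil went from 0 to 33.1, and Id2 (18.4) and Ltbp2 (9.89) went to 0. A D9T- peak already touched the span of Skil, and a D12S+ peak still touched that of Id2.

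Epithelial junction genes had been bound before the step. Of 38 genes, 57.9% were bound in D0, beside 57.4% of all genes. Bound in D9T- were 33 and in D12S+ 29 (-10.5 points, -27.7 to 7.22), and the change was 0 with equal numbers. All genes changed by -7.39 points, which lies in that interval, and by -0.634 with equal numbers. The 28 kept had a median log2 ratio of -1.01, the same as all kept genes. Cdh1, E-cadherin, scored 42.7 in D0 and 71.0 in D6T-, 98.2 in D9T- against 211 in D12S+, and 660 in iPSCs. Epcam went from 76.8 to 56.5, Krt8 from 128 to 55.6, Dsp (desmoplakin) from 247 to 96.9 and Lama5, a laminin chain, from 92.3 to 166. Cldn6 was gained (20.2), and Marveld2 (17.9), Prss8 (14.1), Ovol1 (8.19), Dsc2 (6.02) and Krt19 (5.71) were lost, all 5 from low scores. A D9T- peak already touched the span of Cldn6, and a D12S+ peak still touched those of Marveld2 and Prss8.

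Of 12 AP-1 factor genes, 11 were bound in D9T- and 10 in D12S+ (-8.33 points, beside -7.39 for all genes). The gene lost was Junb, whose span a D12S+ peak still touched, and 11 were bound in each library when any base counted. The 10 kept had a median log2 ratio of -1.44, beside -1.01 for all kept genes. Fosl2 went from 207 to 66.2, Atf3 from 65.5 to 7.33 and Jun from 74.1 to 27.3, while Fosl1 went from 6.18 to 30.4. Of 21 germline genes, 5 were bound in each library (23.8%), beside 53.6% of all genes in D9T- and 46.2% in D12S+. The piRNA helicase gene Mov10l1 (7.33) and Stk31 (9.11) were gained, at 70.7 and 106 in iPSCs, and Dazl (21.2) and Brdt (17.1) were lost.

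Of 6 genes of SSEA-1 synthesis, 4 and 3 were bound, and the galactosyltransferase B4galt1 went from 111 to 55.8. Of 20 extraembryonic and germ layer genes, 6 and 5 were bound, with Mixl1 (8.0) and Hand1 (7.11) gained and Neurog2 (25.5), Dab2 (6.80) and Eomes (5.87) lost. Of 20 hematopoietic genes, 11 and 8 were bound, with 2 gained, Hhex (22.4) among them, and Cd34 (24.1), Fli1 (11.6), Ptprc (9.58), Cd79a (6.64) and Erg (6.02) lost. A D12S+ peak still touched the span of Cd79a. Runx1 stayed bound and went from 432 to 46.5, after 1025 in D0. The changes of these 3 lists had intervals of -55.9 to 31.5, -30.9 to 21.8 and -41.4 to 14.8 points. Each interval held the change of all genes, -7.39 points.

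Of 24 housekeeping genes, 21 and 22 were bound (4.17 points, -15.2 to 23.6, beside -7.39 for all genes). The 19 kept had a median log2 ratio of -0.75, beside -1.01 for all kept genes, with 1 higher in D12S+. Gapdh went from 270 to 122, Ppia from 301 to 179 and Rpl13a from 176 to 154. Rpl4, Eef2 and Psmb4 (30.7) were gained and Actb and Hprt (15.9, X-linked) lost by midpoint.

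**Figure D5:**
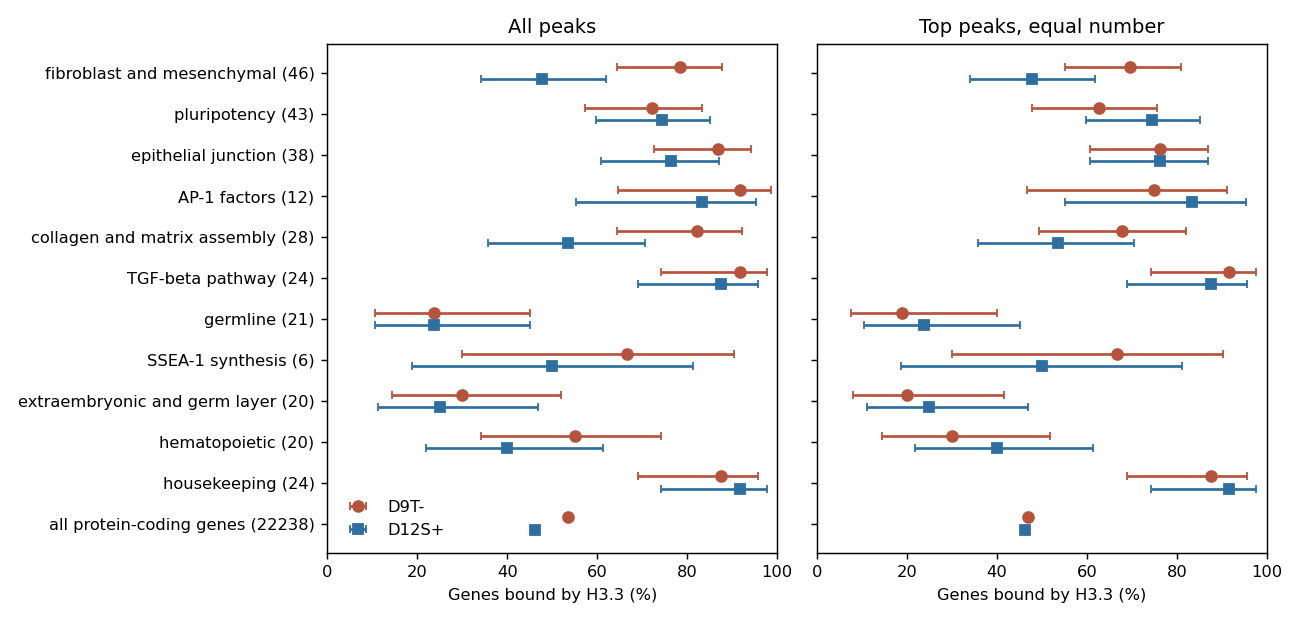
Share of each gene list bound by H3.3 (%, horizontal axis) in D9T- (circles) and D12S+ (squares), with 95% Wilson intervals and the number of genes in brackets, for all peaks (left) and equal numbers (right). Fibroblast genes stand at 78.3% and 47.8% and pluripotency genes at 72.1% and 74.4% with all peaks, beside 53.6% and 46.2% of all genes.

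Lost and gained genes were also dated with the other libraries. Of lost genes, 72.0% were bound in D0, 81.3% in D12S- and 60.8% in iPSCs, beside 57.4%, 58.5% and 57.5% of all genes. Genes bound in D9T-, of which the lost genes are a part, stood higher, at 86.2%, 92.8% and 84.8%. With equal numbers these shares were 53.0%, 69.1% and 42.8% of lost genes, beside 44.9%, 47.9% and 46.0% of all genes. Genes bound in D9T- then stood at 75.5%, 88.0% and 75.2%. The iPSC share of lost genes was thus close to that of all genes in both settings. With all peaks, 260 lost genes (9.23%) were bound in D0, D3 and D6T- and in none of D16S+, iPSCs and ESD3. Among gained genes 1.88% had this pattern. Of the 260 lost genes, 239 were bound in D12S-, where most genes bound in D9T- were bound too (92.8%). Of gained genes, 76.0% were bound in iPSCs, 57.7% in D0 and 58.8% in D12S-, of which only the first stood apart from all genes. Genes bound in D12S+, of which the gained genes are a part, stood higher, at 90.4%, 86.9% and 92.1%. With equal numbers the shares of gained genes were 62.7%, 45.3% and 43.8%, and those of genes bound in D12S+ were 79.2%, 74.4% and 83.8%. With all peaks, 84 gained genes (7.16%) were bound in none of the 3 earlier and all of the 3 later libraries. Among lost genes 1.06% had this pattern. Of the 84 gained genes, 23 were bound in D12S-. Kept genes were not counted for either pattern.

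Promoter H3K4me3, a mark of active starts, was compared in libraries of the same 2 fractions. A peak of the mark within 1 kb of the start was present at 83.5% of lost genes in D9T- and 79.2% in D12S+ (-4.33 points, -6.36 to -2.30), beside 65.2% and 63.0% of all genes. At gained genes it was 75.5% and 74.9% (-0.597 points, -4.09 to 2.90). Kept genes had 94.6% and 93.1%. Counted at the H3.3 peaks themselves, H3K4me3 overlapped 8836 lost peaks in D9T- (19.5%) and 4963 in D12S+, and 12.0% and 13.6% of gained peaks. The D12S+ H3K4me3 library had 9.27% of tags in peaks against 23.7% in D9T-. H3K36me3, a mark of transcribed gene bodies, was present at 53.5% and 20.0% of lost genes, 44.6% and 15.2% of gained genes and 78.3% and 44.1% of kept genes in D9T- and D12S+. It was lower in D12S+ in all 3 groups, and its D12S+ library had 1.07% of tags in peaks against 42.4% in D9T-.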

How the data were processed

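Sorted cells were profiled by H3.3 ChIP-Seq. The authors mapped reads to mm9 with STAR, dropped reads with more than 2 mismatches or more than 1 locus, and called peaks in each library against its own input with HOMER findPeaks (histone style, at least 2.00-fold over input, p-value limit 0.0001); versions are not given in the sources used here. The deposited score is a signal, tags per peak scaled to a library of 10.0 M tags and not divided by length. The deposited fold over input is a ratio. Here, peaks overlapping by at least 1 bp were paired, and midpoints were given to GENCODE vM1 protein-coding genes (22238 symbols); a midpoint in several genes went to the nearest start. Python 3.11.15, numpy 2.4.6, pandas 2.3.3 and scipy 1.17.1 were used, and the overlap code was tested on simulated data. Change intervals combine 2 Wilson intervals. The libraries hold 32.4 M tags (D9T-) and 22.5 M tags (D12S+).

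The members and gene lists were chosen with earlier results of these data known. Named genes were, per list, up to 6 gained and 6 lost of highest summed score, the 8 genes lost and the 8 gained of highest score among all genes, and the 6 largest differences each way among genes bound in both with a score of at least 50; others were named after their values were seen, as were the second gene rule, the repeat counts and the 12 strongest genes by both rules. Of the list symbols, Tfcp2l1, Rhox5, Tfap2c, Sox1 and Spi1 had no match. Alternatives were equal numbers by score or by score per kb, 4-fold over input, scores above the median, autosomes, no high-input peaks, overlap of at least 0.5 of a peak, and nearest start. Other samples and marks were not analysed here beyond the values given. Some named genes that met the rule are not reported here.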

Additional observations from a re-analysis of the deposited data

Results flagged for a closer look

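For 4 gene lists the share of bound genes moved one way from D9T- to D12S+ and the other way between the other fractions of the same days, D9T+ and D12S-. All protein-coding genes moved likewise, by -7.39 points on the route to iPSCs and from 50.7% to 58.5% in the other fractions. With equal numbers all genes changed by -0.634 points and went from 44.7% to 47.9%. Opposite directions are therefore not particular to these lists. These differences rest on 1 library per fraction and were not tested. For epithelial junction genes the change was -10.5 points on the route to iPSCs and 15.8 points in the other fractions, where the share went from 73.7% to 89.5%. For AP-1 factor genes it was -8.33 and 8.33 points, which is 1 gene of 12 each way (on the route Junb, by midpoint only). For genes of collagen and matrix assembly it was -28.6 and 3.57 points. For extraembryonic and germ layer genes it was -5.00 and 20.0 points. Of the 4 lists, opposite directions held with equal numbers for collagen and matrix assembly only, at -14.3 points on the route and from 71.4% to 82.1% in the other fractions. Epithelial junction genes then changed by 0 points, AP-1 factor genes by 8.33 points with 58.3% in both other fractions, and extraembryonic and germ layer genes went from 4 to 5 bound, with 20.0% and 25.0% in the other fractions. Beside these changes with all peaks, the tags in peaks went from 14.8% to 6.93% on the first route and from 12.1% to 22.0% on the second. The part of that difference in enrichment was not tested.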

How the results depend on the processing

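Lost peaks, gained peaks, lost genes and gained genes were 55.1%, 45.4%, 19.0% and 17.8% with equal numbers by score, 57.5%, 48.1%, 19.2% and 18.4% by score per kb, 60.7%, 32.4%, 33.1% and 16.3% with peaks at or above the median score, and 82.3%, 87.1%, 29.3% and 43.6% with peaks at least 4-fold over input, where gains outnumbered losses. Lost peaks overlapping D0 and gained peaks overlapping iPSCs were 31.4% and 40.9%, 24.4% and 35.3%, 38.5% and 58.1%, and 22.7% and 9.67% under these settings in that order. When at least 0.5 of a peak had to be covered, lost and gained peaks were 83.3% and 50.3%, and the D0 and iPSC overlaps 29.2% and 42.4%. On autosomes, lost genes were 22.8%. When any base of the gene span counted, a rule added after seeing the data, lost and gained genes were 20.1% and 7.31%. The pluripotency change was 27.9 points (6.83 to 45.8) at 4-fold over input. The fibroblast change stayed negative in every setting tried, from -32.6 to -13.0 points, and at 4-fold over input its interval held 0 (-31.7 to 6.99). At that limit the epithelial change was 15.8 points and that of all genes 7.51 points, both reversed, and the housekeeping change was -4.17 points by nearest start and also when any base counted. Leaving out high-input peaks moved none of these shares beyond its interval. The cause of these shifts was not tested.

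No paired analysis was possible because each fraction was 1 library. Weak peaks made up most of the lost and gained counts, and the part of depth and enrichment in this was not tested. D12S+ had fewer tags and a smaller share of them in peaks than D9T-. A peak near the calling limit in one library can miss it in the other. Absence of a peak is therefore a statement on calling at this depth and not on absence of H3.3.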

Other observations

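The X chromosome stood apart from every autosome at this step. Of 815 X-linked D9T- peaks, 702 were lost (86.1%, 83.6 to 88.3), against 65.9% on autosomes, where single chromosomes ran from 60.4% to 70.4%. Of 290 X-linked D12S+ peaks, 162 were gained (55.9%, 50.1 to 61.5), against 40.1% on autosomes. With equal numbers the X values were 78.4% lost and 61.7% gained, against 54.9% and 45.3% on autosomes. The X share of all peaks was 1.19% in D9T- and 0.632% in D12S+, and in the 12 libraries it ran from 0.487% in D3 to 1.26% in D6T-. The sex of the cells behind each library was not used here.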
